A study of Tupaia belangeri with 8 samples.

Results

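miR-143-3p, miR-199b-3p and miR-10b-5p, 3 microRNAs (miRNAs) that are best known from fibroblasts, smooth muscle and other mesenchymal cells, were followed through all 8 small RNA libraries of primary tree shrew neurons. They were taken by name (tch-miR-143-3p, tch-miR-199b-3p and tch-miR-10b-5p, where tch marks the tree shrew) and are 3 of the 384 miRNAs in the deposited table, of which 159 carry a known name. All 3 were among the 166 miRNAs that passed the filter on low counts. The study asked how methamphetamine (METH, a psychostimulant that releases dopamine) damages neurons. The question followed here is whether these mesenchymal miRNAs moved together from library to library.

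Cells came from the brain of neonatal tree shrews (Tupaia belangeri) and were grown in Neurobasal-A with B-27 supplement and 15% fetal bovine serum, a medium shared by both groups. The 4 METH libraries came from cells kept for 24 h in 995 µl of medium with 5 µl of a METH stock given as 100 mmol. The 4 PBS libraries came from cells kept in medium alone after a rinse in phosphate-buffered saline (PBS). Whether the samples of a group were separate animals or cultures is not in the labels, so the tests weigh differences against a spread that may be technical.

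A miRNA is cut from a hairpin precursor and guides the silencing machinery to messenger RNAs that pair with its seed. miR-143 is made with miR-145 from a shared transcript and in mice helps smooth muscle cells keep their contractile form. miR-199b comes from the strand opposite a dynamin gene, and its 3p product has the same mature sequence in mammals as miR-199a-3p, so reads of both would carry this name. In human cells miR-199a-3p represses mTOR and MET, which drive growth. miR-10b lies in the HOXD gene cluster, is expressed along the trunk of the embryo and is known for its role in the spread of human breast cancer cells. It differs from miR-10a by a base.

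Library totals were 642982, 680580, 339243 and 6702946 counts in METH 1 to 4, against 526031, 778888, 388419 and 7334789 in PBS 1 to 4, so both libraries numbered 4 were much deeper than the rest. METH 3, PBS 1 and PBS 3 stood apart from the other 5 libraries. They were also the 3 shallowest libraries, so the division coincides with depth. The part of depth in it was not tested. A principal component analysis made without the fibroblast and smooth muscle list, on the other 160 miRNAs, put these 3 at −17.64, −13.91 and −12.72 on its first axis, with 64.1% of the variance. The other 5 lay between 6.19 and 11.22. As a check of the labelled cell type, 5 of 11 listed neuron miRNAs had a row, among them miR-9-5p and miR-128, while no row matched miR-124, the most neuron-specific of them. The summed level of the 5 ranged from 26205 to 99041 normalised CPM (counts scaled by library size and composition) in METH and from 13498 to 72025 in PBS. The listed endothelial miR-126 and the 4 muscle miRNAs matched no row, and the oligodendrocyte miR-219-5p had at most 4 reads.

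The 3 miRNAs differed in abundance by orders of magnitude. miR-143-3p ranked 12th and miR-199b-3p ranked 14th by mean normalised CPM among the 166 miRNAs, while miR-10b-5p ranked 159th. Over the 8 libraries they had 614315, 348488 and 155 reads. Together they made up between 1.36% and 5.94% of the counts in the METH libraries and between 1.67% and 6.09% in the PBS libraries.

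miR-143-3p, the smooth muscle miRNA, had 24319, 27455, 1117 and 45192 normalised CPM in METH 1 to 4, against 1890, 80855, 4925 and 47980 in PBS 1 to 4. METH 3, PBS 1 and PBS 3 were low and the other 5 high, and METH and PBS overlapped. On deposited TPM (counts scaled by the library's total alone) the same 3 libraries were lowest, at 1250, 2787 and 9065 TPM, with the other 5 between 18044 and 52563 TPM. The highest library held 72.4 times the level of the lowest on normalised CPM and 42.1 times on TPM. With a standard deviation (SD) of 2.33 on the log2 scale, miR-143-3p was the 7th most variable of the 166 miRNAs, whose median SD was 0.96. Counting error was small beside this, since the 424 reads in METH 3, the fewest, gave an exact 95% Poisson interval of 1013 to 1228 normalised CPM.

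miR-199b-3p, which stands for both miR-199 3p products, was steady by comparison. It had 21148, 21515, 11001 and 29777 normalised CPM in METH 1 to 4, against 9393, 12849, 13905 and 22189 in PBS 1 to 4. METH 3 was the lowest of the METH libraries and PBS 1 the lowest of the PBS libraries, both groups overlapped, and PBS 3 lay above PBS 2. The highest level was 3.17 times the lowest, and its SD of 0.58 on the log2 scale was the 19th smallest of the 166. The order of libraries depended on the scaling, since on TPM PBS 3 was the highest library, at 25594 TPM, and PBS 2 the lowest, at 8353 TPM. The scaling factors that separate both units were 1.12, 1.48 and 1.84 in METH 3, PBS 1 and PBS 3 and between 0.65 and 1.01 in the other 5.

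miR-10b-5p, the HOXD cluster miRNA, was scarce in every library. It had 19, 5, 3 and 28 reads in METH 1 to 4, against 28, 19, 12 and 41 in PBS 1 to 4. These are 39.8, 7.26, 7.90 and 5.27 normalised CPM in METH and 36.1, 37.5, 16.8 and 6.61 in PBS. METH 1, PBS 1 and PBS 2 were high and close to each other, PBS 3 was intermediate, and METH 2, METH 3, METH 4 and PBS 4 were low. The order depended on the scaling. On TPM PBS 1 was highest, at 53.2, followed by PBS 3 at 30.9, METH 1 at 29.5 and PBS 2 at 24.4. With so few reads, neighbours in either order could not be told apart. The exact Poisson interval was 24.0 to 62.2 normalised CPM in METH 1, 2.36 to 17.0 in METH 2, 1.63 to 23.1 in METH 3, 8.67 to 29.3 in PBS 3 and 4.74 to 8.97 in PBS 4. These intervals cover counting error only. The lowest value of each group belonged to its deepest library, METH 4 and PBS 4, and the part of depth in this order was not tested.

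**Figure D1:**
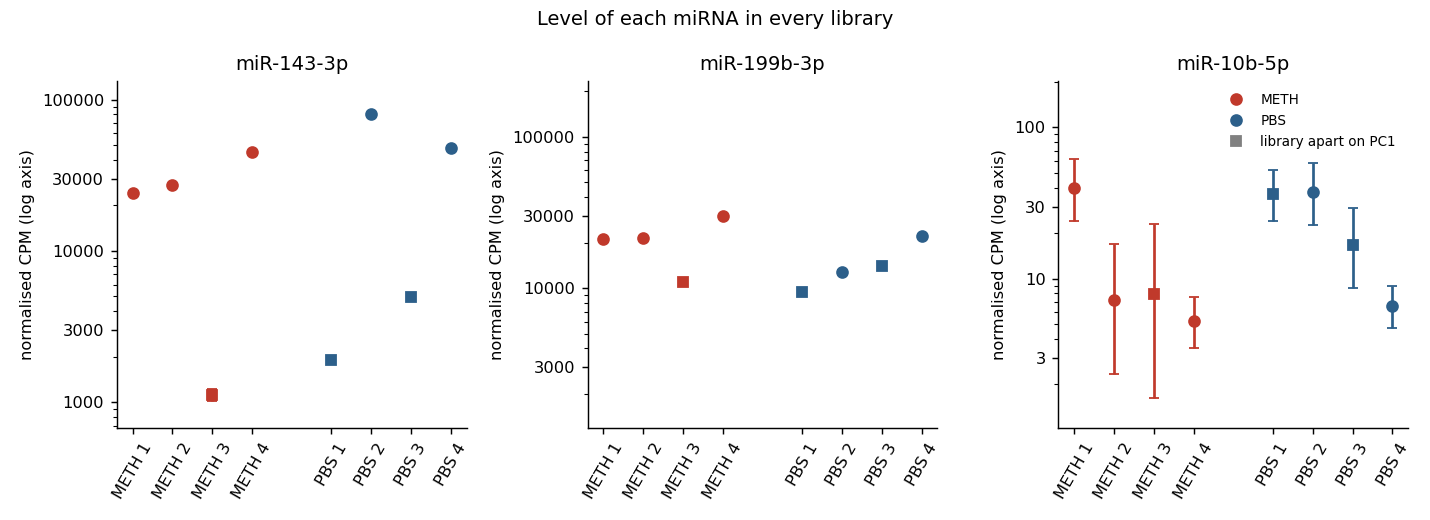
Normalised CPM of miR-143-3p, miR-199b-3p and miR-10b-5p (vertical log axes of equal span) in METH 1 to 4 and PBS 1 to 4, with exact 95% Poisson intervals for counting error. Squares mark METH 3, PBS 1 and PBS 3, where miR-143-3p lay between 1117 and 4925 against 24319 to 80855 in the other 5, while miR-199b-3p stayed between 9393 and 29777 and miR-10b-5p between 5.27 and 39.8.

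Set against the division of the libraries, the 3 miRNAs behaved differently. miR-143-3p lay between 1117 and 4925 normalised CPM in METH 3, PBS 1 and PBS 3. It lay between 24319 and 80855 in the other 5, with no overlap. These 3 libraries were known from an earlier analysis of these data to stand apart and to be low in miR-143-3p. The separation is therefore a description and not a test. It was not particular to miR-143-3p. As given below, miR-152, miR-21-5p and miR-148a-3p separated in the same direction and miR-455-3p in the other. How many of all tested miRNAs separated was not counted. miR-199b-3p lay between 9393 and 13905 in the 3 and between 12849 and 29777 in the other 5, which overlapped through PBS 3 and PBS 2. Its median on this scaling was lower in the 3 (11001 against 21515), the same direction as miR-143-3p with a smaller change. miR-10b-5p did not separate by the division, with 7.90 to 36.1 in the 3 and 5.27 to 39.8 in the other 5. Its median was higher in the 3 (16.8 against 7.26), the opposite direction to miR-143-3p, but rests on few reads. Since miR-143-3p and most of the variance fell into these separate clusters, no correlation over the 8 libraries is given, and with 3 and 5 libraries none could be tested within a cluster.

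**Figure D2:**
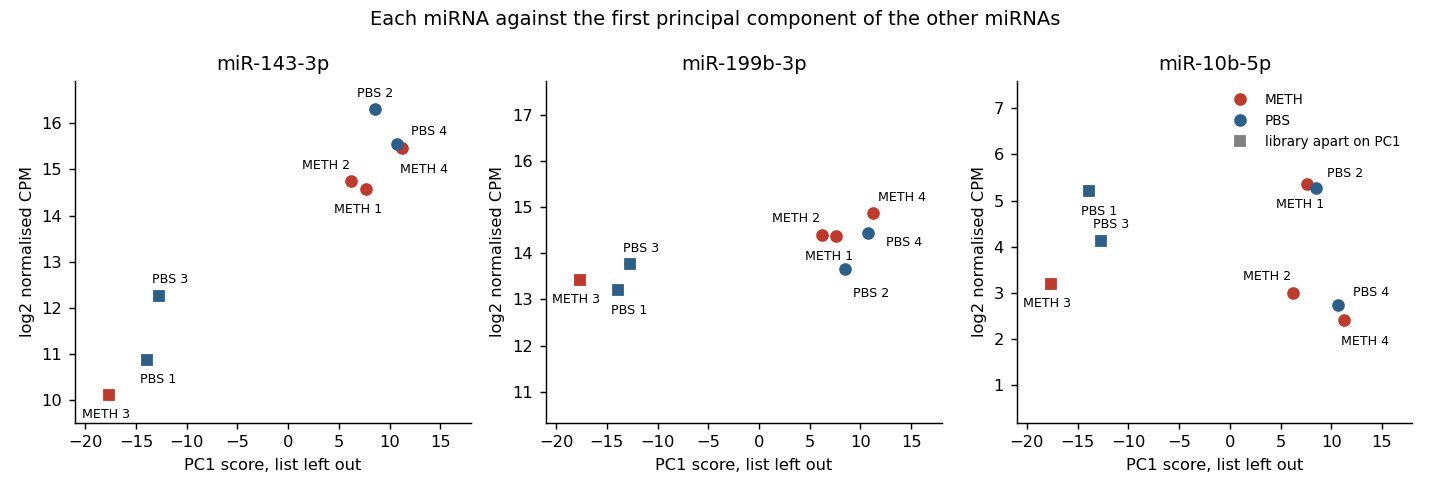
Log2 normalised CPM of each miRNA (vertical axes of equal span) against the score of each library on the first principal component of 160 other miRNAs, with red for METH, blue for PBS and squares for METH 3, PBS 1 and PBS 3. The squares lie between −17.64 and −12.72 and are low for miR-143-3p, overlapping with the other 5 for miR-199b-3p, and spread over their range for miR-10b-5p.

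The ratio of a pair within a library needs no scaling, and a pair that moves together by the same factor keeps a nearly constant ratio. A pair that moves in the same direction by unequal factors does not, so the ratio cannot show such a shared direction. The counts of miR-143-3p were 1.15, 1.28, 0.102 and 1.52 times those of miR-199b-3p in METH 1 to 4, against 0.201, 6.29, 0.354 and 2.16 times in PBS 1 to 4. miR-199b-3p was thus the more abundant of the pair in METH 3, PBS 1 and PBS 3 and the less abundant in the other 5. The log2 ratio had an SD of 1.95 over the 8 libraries, against an SD of 2.33 for miR-143-3p and 0.58 for miR-199b-3p alone, and ranged over 61.9-fold. Without METH 3, PBS 1 and PBS 3, its SD was 1.00.

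The pairs with miR-10b-5p varied more than either of their miRNAs did alone. The log2 ratio of miR-143-3p over miR-10b-5p had an SD of 2.76, above the SD of either alone (2.33 and 1.23), and ranged over 164-fold, with its highest value, 13.04, in METH 4 and its lowest, 5.69, in PBS 1. Without METH 3, PBS 1 and PBS 3, its SD was 1.54. That of miR-199b-3p over miR-10b-5p had an SD of 1.62, also above the SD of either alone (0.58 and 1.23), ranged over 21.7-fold, and had an SD of 1.78 without METH 3, PBS 1 and PBS 3. It was highest in the deep libraries, at 12.44 in METH 4 and 11.70 in PBS 4, and at most 11.40 in the other 6. For a single member and each of the 165 other miRNAs, the median SD of the log2 ratio was 2.45 for miR-143-3p, 1.19 for miR-199b-3p and 1.62 for miR-10b-5p. By this measure miR-199b-3p ranked 47th and miR-10b-5p ranked 99th in nearness to miR-143-3p, and miR-10b-5p ranked 129th in nearness to miR-199b-3p. The ranks differ by direction. In turn miR-143-3p ranked 152nd in nearness to miR-199b-3p and 158th to miR-10b-5p, and miR-199b-3p ranked 83rd to miR-10b-5p.

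Between METH and PBS, none of the 3 ratios differed beyond the spread. The mean log2 ratio of miR-143-3p over miR-199b-3p was −0.54 ± 1.85 in METH and −0.01 ± 2.30 in PBS (SD, n = 4 each, difference −0.52, exact two-sided permutation p = 0.743). It turned to 0.40 without METH 3 and to 0.36 without PBS 2. That of miR-143-3p over miR-10b-5p was 10.23 ± 2.72 in METH and 9.42 ± 3.15 in PBS (SD, n = 4 each, difference 0.81, exact permutation p = 0.686). It turned to −0.12 without METH 4, to −0.43 without PBS 1 and to −0.59 without METH 3, PBS 1 and PBS 3. That of miR-199b-3p over miR-10b-5p was 10.77 ± 1.48 in METH and 9.43 ± 1.67 in PBS (SD, n = 4 each, difference 1.34, exact permutation p = 0.257). The adjusted p over the 3 ratios was 0.743 for each (exact permutation tests with Benjamini-Hochberg adjustment), and 70 splits allow no p below 0.0286.

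**Figure D3:**
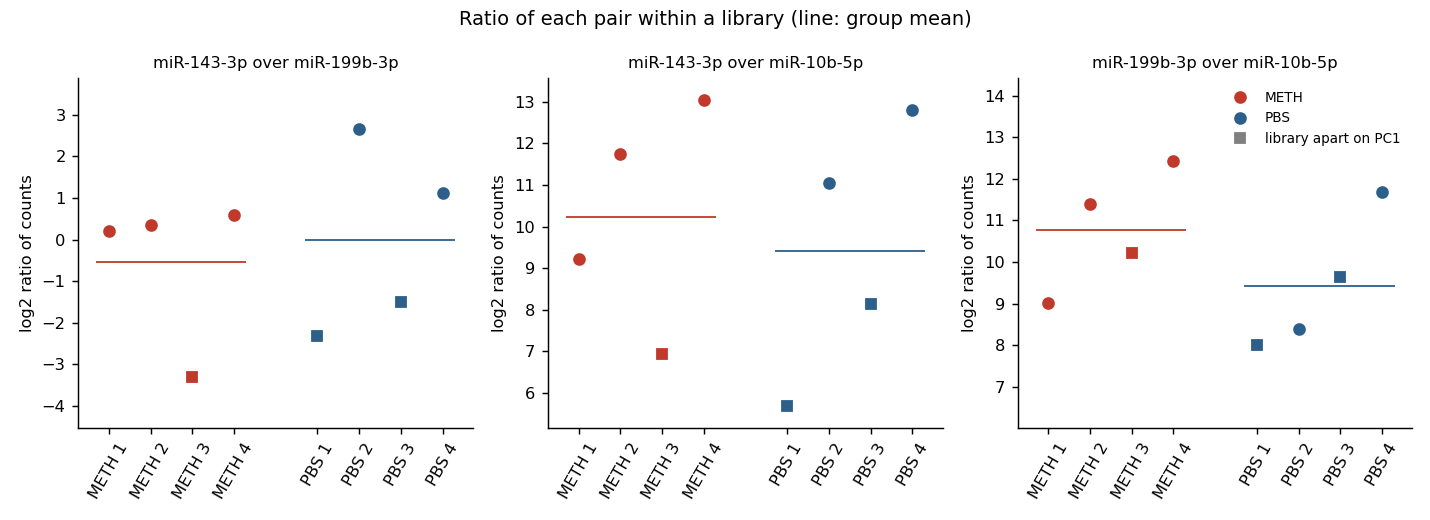
Log2 ratio of counts for each pair (vertical axes of equal span) in METH 1 to 4 and PBS 1 to 4, with a line at each group mean and squares for METH 3, PBS 1 and PBS 3. The ratio of miR-143-3p over miR-199b-3p is below 0 in the squares and above 0 in the other 5 libraries, and each METH mean lies within the spread of the PBS libraries.

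Other miRNAs of the fibroblast and smooth muscle list were compared in the same way. Of its 10 names 6 had a row, and all 6 passed the filter. No row matched miR-145, the partner of miR-143, nor miR-214, miR-199a or miR-10a. The 6 fell into different patterns. miR-152, a repressor of the DNA methyltransferase DNMT1 in human and mouse cells, had 4601, 6368, 261 and 14877 normalised CPM in METH 1 to 4, against 584, 6588, 1406 and 10010 in PBS 1 to 4. miR-140-5p, a cartilage miRNA, had 226, 184, 18.4 and 744 in METH, against 34.8, 280, 22.4 and 823 in PBS. Both were low in METH 3, PBS 1 and PBS 3, as miR-143-3p was.

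miR-455-3p, another miRNA of cartilage cells, ran the other way. It had 151, 214, 774 and 98.1 normalised CPM in METH 1 to 4, against 601, 98.7, 427 and 68.5 in PBS 1 to 4. METH 3, PBS 1 and PBS 3 were its 3 highest libraries, from 427 to 774, with the other 5 from 68.5 to 214. The SD of the log2 ratio to miR-143-3p was 0.64 for miR-152, 0.96 for miR-140-5p and 3.61 for miR-455-3p, which ranked 2nd, 6th and 154th of the 165. To miR-199b-3p these SDs were 1.62, 1.73 and 1.79, and to miR-10b-5p they were 2.69, 2.79 and 1.61.

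**Figure D4:**
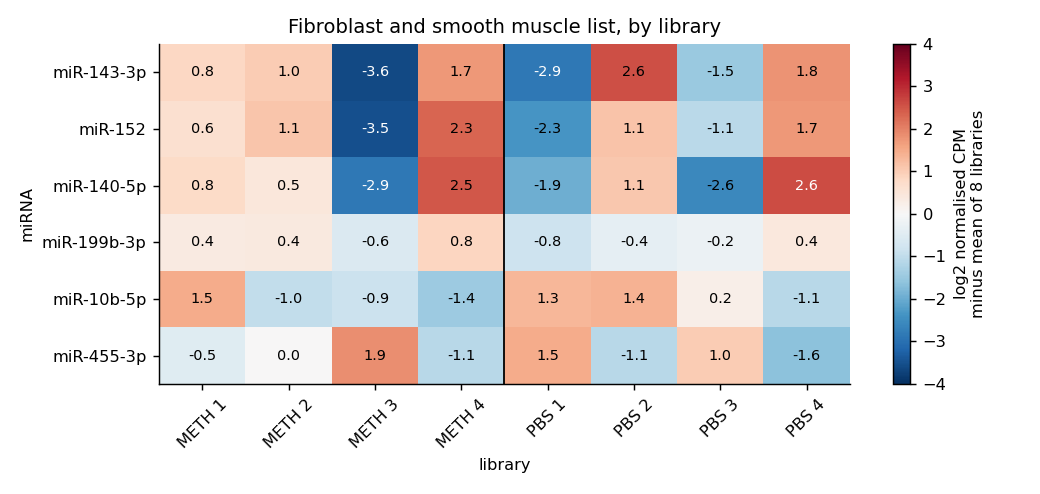
Log2 normalised CPM minus the mean of the 8 libraries for the 6 miRNAs of the fibroblast and smooth muscle list that had a row, by library, with METH left of the vertical line and PBS right of it. miR-143-3p, miR-152 and miR-140-5p are below their means in METH 3, PBS 1 and PBS 3, and miR-455-3p is above its mean there, by 1.00 to 1.86. miR-199b-3p lies between −0.81 and 0.85. It is below its mean in METH 3, PBS 1 and PBS 3, at −0.59, −0.81 and −0.25, and also in PBS 2, at −0.36.

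The miRNAs nearest to each of the 3 over the 8 libraries were different ones. Nearest to miR-143-3p were let-7a-3p (SD of the log2 ratio 0.60), miR-152 (0.64), miR-148a-3p of the same seed family as miR-152 (0.88) and miR-374a-5p (0.89). let-7a-3p and miR-374a-5p rest on 2 reads each in METH 3 and on 6 to 11 in PBS 1 and PBS 3. Nearest to miR-199b-3p were miR-20a-5p of the growth-promoting miR-17-92 cluster (0.30), miR-186-5p (0.37), miR-95 (0.40) and miR-30c-5p (0.47). These 4 varied little themselves, with SDs of log2 normalised CPM between 0.35 and 0.53. Nearest to miR-10b-5p were the predicted miRNA novel_446 (0.60), miR-363-3p of the miR-92 seed family (0.68), the predicted novel_72 (0.75) and miR-592 (0.80). The points behind these SDs share libraries and depth, and they describe these 8 libraries only.

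miRNAs of other cell types did not all follow miR-143-3p. miR-21-5p, an injury and stress miRNA and the most abundant one, did, with 47001, 51060 and 37782 normalised CPM in METH 3, PBS 1 and PBS 3 and from 375003 to 604278 in the other 5. So did miR-148a-3p, with 2204 to 6038 in the 3 and 48252 to 213372 in the other 5, and miR-218-5p, a motor neuron miRNA, with 192 to 495 in the 3 and 1641 to 3549 in the other 5. These miRNAs, and the other tested ones below, were among the 160 behind the first principal component. Their match with the division is therefore partly built in. miR-9-5p, a regulator of neurogenesis, lay between 6507 and 64267 in the 3 and between 18323 and 60166 in the other 5, and miR-128 between 1432 and 2499 in the 3 and 1460 and 3538 in the other 5. miR-7-5p lay between 1725 and 3048 in the 3 and between 2072 and 31805 in the other 5. miR-129-5p, a brain-enriched miRNA, was at 1557 to 13466 in the 3 and at 182 to 1849 in the other 5, which overlap, with the 2 highest values in METH 3 and PBS 1. The epithelial miR-200b-3p had 316 normalised CPM in METH 3 and 236 in PBS 1 but 5.59 in PBS 3, and at most 6.29 in the other 5. The summed level of the 4 epithelial miRNAs with a row was 4.36 to 458 in METH and 11.6 to 373 in PBS, and that of the 3 leukocyte miRNAs was 704 to 5641 in METH and 687 to 5147 in PBS. By the division of libraries, leukocyte miR-155-5p ran opposite to miR-143-3p, with 2109 to 4775 in the 3 and 492 to 1240 in the other 5. The other leukocyte miRNAs did not. miR-146a-5p overlapped, with 366 to 3038 in the 3 and 105 to 4570 in the other 5. miR-142 had no reads in METH 3 and PBS 1 and at most 36 in any library. The leukocyte sum overlapped too, with 4287 to 5147 in the 3 and 687 to 5641 in the other 5. The 3 astrocyte-associated miR-29 miRNAs summed to 1499 to 4681 in METH and 827 to 3523 in PBS. By the division they summed to 827 to 1499 in the 3 and 1555 to 4681 in the other 5, a narrow gap that depended on the scaling. On TPM miR-29a-3p, the most abundant of them, overlapped, with 1504 to 1660 in the 3 and 1109 to 3557 in the other 5. Of the tested members of these lists (5 neuron, 2 leukocyte and 2 astrocyte miRNAs), 0 were called between METH and PBS. Whether other cell types had a part in the level of miR-143-3p was not tested. In such bulk samples fewer cells of a type and less RNA per cell cannot be told apart.

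The comparison of METH with PBS called none of the 3 miRNAs. edgeR's quasi-likelihood test with Benjamini-Hochberg adjustment called 0 of 166 miRNAs (0%) at the threshold of 0.05. Before adjustment, 0 had a p under 0.05 in edgeR. DESeq2 also called 0, with 1 of 166 (0.602%) at an unadjusted p under 0.05. No miRNA of the 166 had groups that did not overlap. All 3 members had an edgeR adjusted p of 0.999.

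miR-143-3p averaged 24521 ± 18108 normalised CPM in METH and 33913 ± 37715 in PBS (SD, n = 4 each). Its log2 fold change, METH over PBS, was −0.47 (SE 1.14, 95% interval −2.97 to 2.04), with 3 of 4 METH libraries below the PBS mean. Without PBS 2, its highest library, it was 0.42. miR-199b-3p averaged 20860 ± 7686 in METH and 14584 ± 5424 in PBS (SD, n = 4 each). Its log2 fold change was 0.52 (SE 0.53, 95% interval −0.64 to 1.67), with 3 of 4 METH libraries above the PBS mean.

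miR-10b-5p averaged 15.1 ± 16.5 normalised CPM in METH and 24.3 ± 15.1 in PBS (SD, n = 4 each). Its log2 fold change was −0.71 (SE 0.82, 95% interval −2.50 to 1.09), with 3 of 4 METH libraries below the PBS mean, and it was −1.84 without METH 1. These intervals run from 0.127-fold to 4.10-fold for miR-143-3p, from 0.643-fold to 3.18-fold for miR-199b-3p and from 0.176-fold to 2.13-fold for miR-10b-5p. All 3 therefore still hold a 2-fold change in at least 1 direction. The 6 tested miRNAs of the list had a median log2 fold change of 0.03 with TMM scaling, with 4 above 0 and none called, beside a median of 0.21 over the 166, with 126 above 0. Neither direction held over the scalings. The list had 2 above 0 with DESeq2 size factors, upper quartile factors or total counts (medians −0.12, −0.16 and −0.18), and the 166 had 93, 88 and 64 above 0 (medians 0.05, 0.02 and −0.14).

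The deep libraries were compared apart from the shallow ones. METH 4 held 0.882 times the TPM of PBS 4 for miR-143-3p (exact 95% interval 0.878 to 0.887), 1.26 times for miR-199b-3p (1.25 to 1.27) and 0.747 times for miR-10b-5p (0.445 to 1.24). These intervals cover counting error only, and 1 library a group allows no test. Over the 3 METH and 3 PBS libraries that remained, the log2 fold changes were −0.73, 0.57 and −0.71, and none was called by edgeR (adjusted p = 0.996). Without METH 3, PBS 1 and PBS 3 they were −1.06, 0.38 and −0.33, and none was called by edgeR (adjusted p = 0.987).

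**Figure D5:**
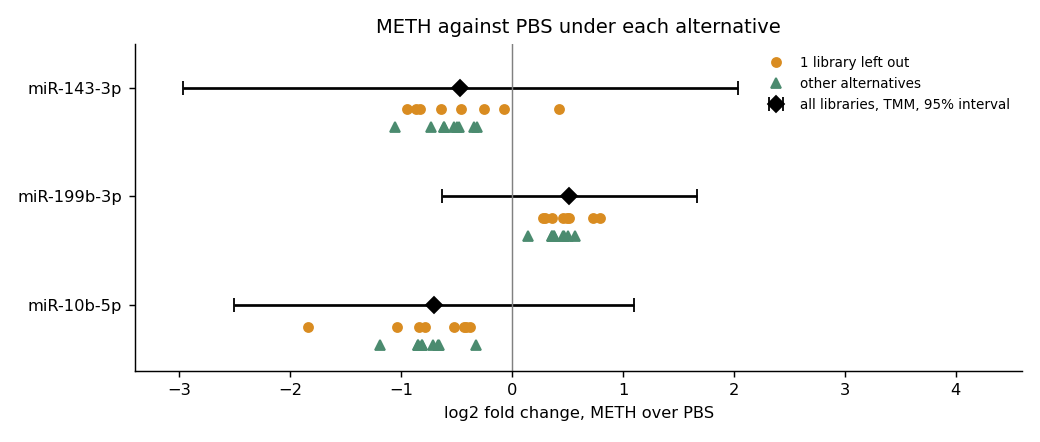
Log2 fold change, METH over PBS, of each miRNA with its 95% interval (diamond and bar), and under the alternatives that left out 1 library (circles) or changed another choice (triangles). Every interval includes 0, and miR-143-3p alone has an estimate on the other side of 0, at 0.42 without PBS 2.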

How the data were processed

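Per the labels' protocols, adapters were joined to both ends of the small RNA, which was reverse transcribed, amplified by PCR and size-selected on a gel. The authors deposited 1 table of raw read counts and TPM per miRNA, per the file headers. The deposited TPM equal counts divided by the library's total and multiplied by a constant (largest difference 4.51e-05), so depth is known from the counts. The aligner, miRNA reference and build were not given in the sources used here, and no sequences or coordinates were used here. No molecular identifiers are mentioned.

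Groups came from the sample titles. edgeR 4.0.16 in R 4.3.3 was run on all 384 rows with filterByExpr (minimum count 10, minimum total 15; 166 kept, holding at least 99.8% of each library's counts), TMM factors and the robust quasi-likelihood F test, adjusted over all 166 at 0.05. SE and 95% intervals come from its F statistic. Alternatives that left out libraries kept the same 166 miRNAs. DESeq2 1.42.0 was an alternative. Ratios and log2 levels had 0.5 added to counts. The principal component used log2 CPM with a prior count of 2. The edgeR test was checked on simulated counts. The 8 libraries differed from each other by far more than sampling noise.

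Named miRNAs are the 3 members, every list row with its values or its summed range, the 4 kept miRNAs with the smallest SD of the log2 ratio to each member, and miR-9-5p, miR-128, miR-218-5p, miR-21-5p, miR-148a-3p and miR-200b-3p. The members, the lists and the division of the libraries were chosen with earlier results of these data known.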

Additional observations from a re-analysis of the deposited data

Results flagged for a closer look

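2 of 12 groups of 4 values examined (3 levels and 3 log2 ratios, in METH and in PBS) held a library far from the other 3. Chance alone gives about 1 in 20 groups if values are normal and groups independent. The 12 groups share miRNAs and libraries, and levels were taken on the linear scale, so that rate is a rough guide. miR-10b-5p in METH 1 was at 39.8 normalised CPM, with the next METH library at 7.90. The log2 ratio of miR-143-3p over miR-199b-3p in METH 3 was −3.30, with the next METH library at 0.20. METH 3 was the only METH library among those that stood apart. PBS 1 and PBS 3, which also stood apart, had ratios of −2.31 and −1.50, so this flag restates the division given above.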

How the results depend on the processing

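No call was gained or lost under the 17 alternatives to the edgeR test, which all called 0 miRNAs, nor under the 12 for each ratio. Leaving out 1 library gave log2 fold changes from −0.94 to 0.42 for miR-143-3p, from 0.28 to 0.79 for miR-199b-3p and from −1.84 to −0.38 for miR-10b-5p. Differences of log2 ratios then ran from −1.29 to 0.40 for miR-143-3p over miR-199b-3p, from −0.43 to 1.94 for miR-143-3p over miR-10b-5p, and from 0.78 to 2.10 for miR-199b-3p over miR-10b-5p. Without METH 3, PBS 1 and PBS 3 the difference for miR-143-3p over miR-10b-5p was −0.59, and the SDs of the ratios of miR-143-3p to miR-199b-3p and to miR-10b-5p were 1.00 and 1.54, since 5 libraries of 1 side remain. Scaling by DESeq2 size factors, by upper quartiles or by total counts moved the log2 fold changes of all miRNAs by a median of −0.15, −0.16 and −0.35, and miR-199b-3p stayed above 0 (0.36, 0.38 and 0.14). No label ties samples of the same number to each other. Their deviations from the group means correlated at −0.25, 0.54, 0.77 and 0.89 for numbers 1 to 4. The METH libraries numbered 2, 3 and 4 correlated best with their own number and METH 1 with PBS 2, a hint from the data and not the design, so the numbers were not taken as pairs. With the replicate block, edgeR called 0 miRNAs, with 2 at an unadjusted p under 0.05, and gave −0.32, 0.50 and −0.81 for miR-143-3p, miR-199b-3p and miR-10b-5p. The block could not change the 3 ratio differences of −0.52, 0.81 and 1.34, since the numbers are balanced between the groups. Depth limits miR-10b-5p most, with 3 to 41 reads a library.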
